A study of Mus musculus with 12 samples.

Results

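Pericytes and vascular smooth muscle cells, together called mural cells, wrap the endothelial tube of blood vessels. Here 9 genes used to recognize them were followed in gonadal white adipose tissue (GWAT), namely Rgs5, Abcc9, Kcnj8, Higd1b, Cspg4, Pdgfrb and Notch3 for pericytes and Myh11 and Des for the contractile cells of larger vessels. They were taken by gene symbol from a table of 55281 annotated mouse genes, in which each of the 9 symbols had 1 row, and all 9 passed the filter on low counts. Bulk RNA sequencing covered 12 libraries of male mice aged 22 to 24 weeks, 3 in each of 4 groups, with GWAT of 3 mice pooled for every library. WT mice were Hoip fl/fl AdipoQ.Cre- and HoipA-KO mice Hoip fl/fl AdipoQ.Cre+, so that all groups carried the floxed Hoip alleles and the Cre, driven by the Adiponectin promoter, is active in mature adipocytes. From 6 weeks of age the mice received a control diet (CD, 14% fat) or a high-fat diet (HFD, 60% fat) for 16 weeks. The questions were how the adipocyte-specific loss of HOIP, the catalytic subunit of the linear ubiquitin chain assembly complex, and the diet bore on the tissue.

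Capillary pericytes share a basement membrane with the endothelium and are recruited to sprouting vessels by PDGF-B, which endothelial cells release and the receptor PDGFRβ on pericytes detects. Contact between the layers also runs through Notch ligands and receptors, with NOTCH3 the receptor of mural cells, and through angiopoietin 1, which mural cells make and the endothelial receptor TIE2 binds. Vascular tone is set in part by an ATP-sensitive potassium channel of mural cells, whose pore and regulatory subunit are encoded by Kcnj8 and Abcc9. In fat depots PDGFRβ also marks perivascular and stromal progenitors, so the receptor is less specific to pericytes than Rgs5 or Higd1b.

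The upstream sequences of Rgs5, Abcc9 and Kcnj8 are shown because Rgs5 and Abcc9 were called lower together and Kcnj8 encodes the partner of Abcc9 in the channel. They are RefSeq sequences of build GRCm38.p6 and span the 200 bases from 250 to 51 before the annotated start of each gene, 5′ to 3′ on the strand of the gene, and capitals mark the core motif of the Notch effector RBPJ (TGGGAA) or an E-box (CANNTG). The windows are chr1:169655251-169655450 on the plus strand for Rgs5, chr6:142702325-142702524 on the minus strand for Abcc9 and chr6:142571665-142571864 on the minus strand for Kcnj8.
Rgs5: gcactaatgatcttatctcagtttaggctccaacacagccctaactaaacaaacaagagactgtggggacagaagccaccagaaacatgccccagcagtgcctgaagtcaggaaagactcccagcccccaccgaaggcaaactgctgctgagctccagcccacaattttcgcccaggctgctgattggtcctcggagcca
Abcc9: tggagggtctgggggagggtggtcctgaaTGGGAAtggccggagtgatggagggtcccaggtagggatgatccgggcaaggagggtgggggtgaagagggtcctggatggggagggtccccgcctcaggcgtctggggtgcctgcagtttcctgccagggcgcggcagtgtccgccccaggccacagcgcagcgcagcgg
Kcnj8: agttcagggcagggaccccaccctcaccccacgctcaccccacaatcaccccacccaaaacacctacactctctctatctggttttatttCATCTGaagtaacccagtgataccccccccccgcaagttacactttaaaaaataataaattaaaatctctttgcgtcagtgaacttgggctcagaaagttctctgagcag
The starts of Abcc9 and Kcnj8 lie 130660 bases apart on chromosome 6. Both strands were searched. The RBPJ core occurred in the Abcc9 window, 221 bases before the start, and in 17.9% of the 32851 promoters searched over the same window. An E-box lay 160 bases before the start of Kcnj8 and in 59% of promoters. The CArG box, the element of serum response factor in contractile genes, was in none of the windows of the 6 genes matched (Rgs5, Abcc9, Kcnj8, Cspg4, Notch3 and Des) and in 1.16% of all promoters. These letters are a description of the windows and were not tested against expression.

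Libraries held 30513446 to 60540225 estimated counts, and 3 counts, taken as the floor of a library, were 0.0496 to 0.0983 CPM, which scales counts to a library total of 1000000 and is normalized here for library composition. Every member lay above this floor in each library. The comparisons deposited by the authors leave out WT CD replicate 3, in which 5146 genes with 19.9% of its counts stood more than 8 times above every other library. Tests are therefore given over 11 libraries, with the value over all 12 beside them where it changes a call. In WT CD replicate 2, 464 such genes held 6.88% of the counts. The 9 markers of epididymal epithelium summed to 15446 CPM there, mainly Crisp1 (12989.5 CPM) and Adam7 (2445 CPM). In HoipA-KO HFD replicate 1 they summed to 1307 CPM, mainly Crisp1 (1303 CPM), and in all other libraries to at most 104 CPM. Of all libraries, HoipA-KO HFD replicate 3 was nonetheless highest for Lcn8 (28.4 CPM), Spag11b (16.1 CPM), Rnase10 (13.1 CPM), Cst11 (10.1 CPM) and Ovch2 (4.88 CPM). HoipA-KO HFD replicate 1 also stood apart in smooth muscle genes, as described for Myh11. Rnf31, the gene of HOIP, had 12.9 to 21.8 CPM in WT and 17.6 to 22.1 CPM in HoipA-KO libraries, so that the genotype cannot be read from it in whole tissue. Adipoq, the adipocyte marker, was present at 203 to 3436 CPM in every library.

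On CD the pericyte genes did not move together. Rgs5, Higd1b and Abcc9 were lower in HoipA-KO than in WT mice, Pdgfrb was higher, and the other 5 genes did not pass an adjusted p of 0.05 (quasi-likelihood F test of edgeR, Benjamini-Hochberg adjusted across the whole table). These 4 of 9 members stand beside 37.7% of all 18427 genes tested, 18.8% lower and 18.9% higher, so the share called is near that of the whole table. On HFD 1 member, Cspg4, was lower, beside 11.8% of all genes called and 7.62% of all genes lower. In WT mice the diet raised 1 member, Pdgfrb, where 14.8% of all genes were called and 9.35% were higher, and in HoipA-KO mice no member was called for the diet. Over all 12 libraries 3 members were called on CD beside 34.7% of all genes, 0 on HFD beside 2.78%, and 1 for the diet in WT mice beside 15% of all genes. Beside that count of 0 on HFD by edgeR, 5 members had an unadjusted p under 0.05 over 12 libraries. Of all 18074 genes 3931 did so. DESeq2's Wald test called 4 members over 11 libraries, and 4410 of all 18427 genes. In bulk tissue fewer cells of a type and less RNA per cell cannot be told apart.

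**Figure D1:**
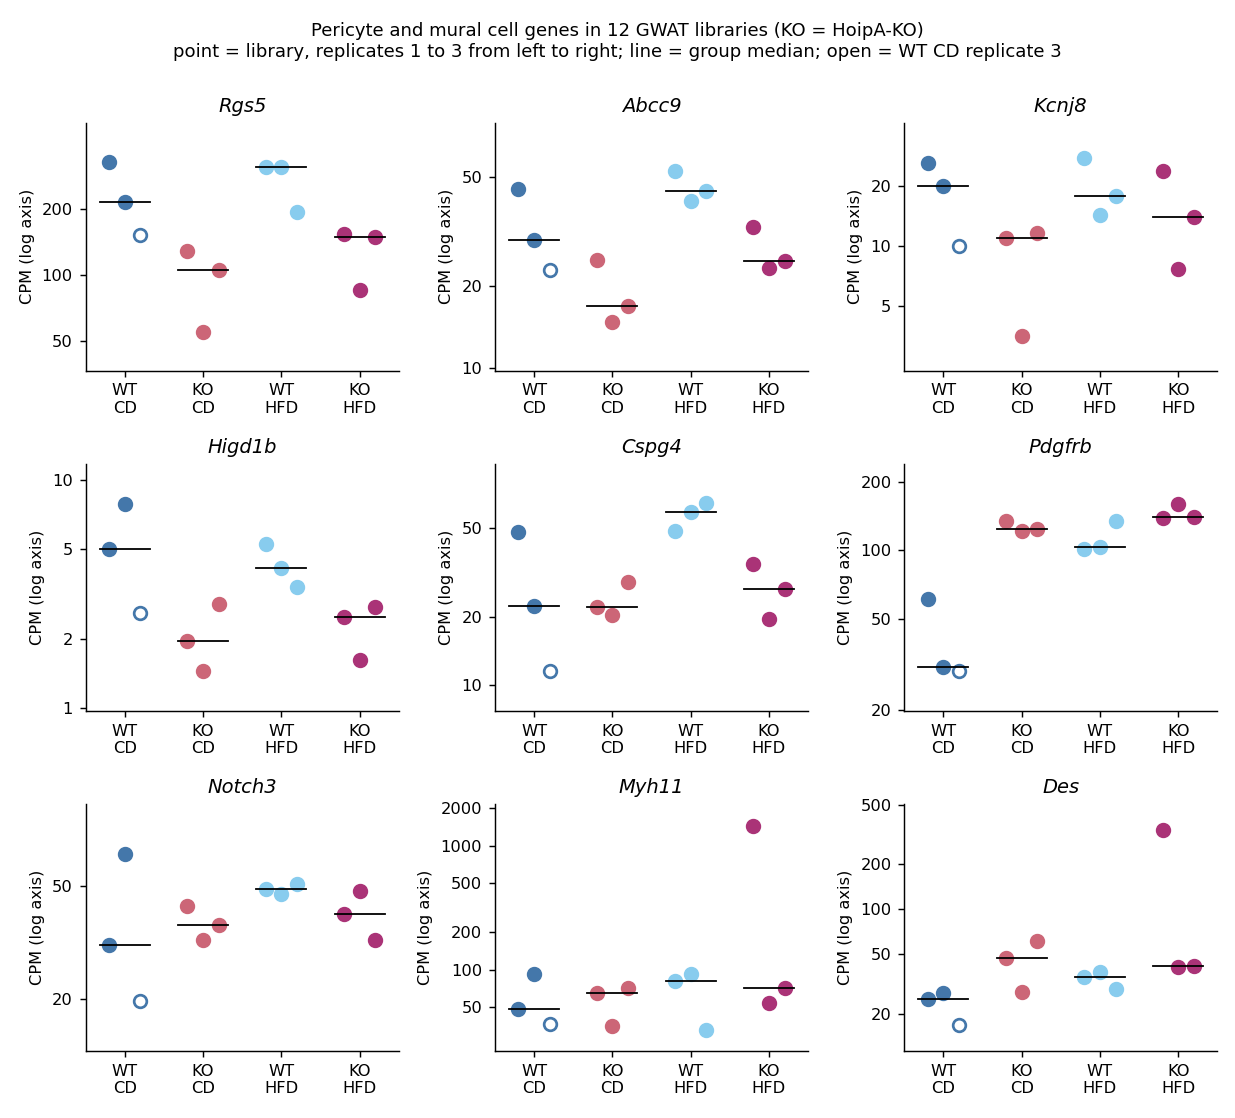
Normalized CPM (log axis) of the 9 genes in each library of the 4 groups (KO stands for HoipA-KO), with replicates 1 to 3 from left to right, a line at the group median and WT CD replicate 3 as an open point. Rgs5 lies below every WT library of the same diet in all HoipA-KO libraries, Pdgfrb lies above, and Myh11 has 1442 CPM in 1 HoipA-KO HFD library.

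Rgs5 (ENSMUSG00000026678), a regulator of G protein signaling and a defining gene of capillary pericytes, had 326, 215 and 152 CPM in replicates 1 to 3 of WT CD and 128, 55.3 and 105 CPM in HoipA-KO CD. On HFD it had 308, 309.9 and 193 CPM in WT and 154, 85.7 and 149 CPM in HoipA-KO libraries. On either diet the highest HoipA-KO library lay below the lowest WT library, with little distance to the WT CD library of 152 CPM. The log2 fold change in HoipA-KO on CD was -1.46 (standard error 0.38, edgeR adjusted p = 0.0155), or 0.363 times the WT level, and -1.27 over 12 libraries (adjusted p = 0.0320). It rested on WT CD replicate 1, without which it was -1.08 and no longer passed (adjusted p = 0.0954). On HFD the value was -1.06 (standard error 0.35, adjusted p = 0.0759), which missed the threshold in edgeR's quasi-likelihood test, and it passed in DESeq2's Wald test (adjusted p = 0.0197). The diet was not called for Rgs5, with a log2 fold change of 0.033 (standard error 0.39) in WT and 0.43 (standard error 0.35) in HoipA-KO mice.

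Higd1b (ENSMUSG00000020928), a hypoxia-inducible domain family member nearly confined to pericytes, was scarce. It had 4.96, 7.90 and 2.62 CPM in replicates 1 to 3 of WT CD and 1.96, 1.45 and 2.86 CPM in HoipA-KO CD. WT CD replicate 3 thus lay among the HoipA-KO libraries, whereas replicates 1 and 2 lay above them. The log2 fold change on CD was -1.57 (standard error 0.36, edgeR adjusted p = 0.00886) and -1.29 over 12 libraries (adjusted p = 0.0441). It did not pass when WT CD was replicates 1 and 3 (-0.87, edgeR adjusted p = 0.138) or replicates 2 and 3 (-1.26, adjusted p = 0.0686). On HFD the WT libraries had 5.24, 4.10 and 3.39 CPM and the HoipA-KO libraries 2.52, 1.62 and 2.77 CPM. These groups did not overlap, and the log2 fold change of -0.88 (standard error 0.33, edgeR adjusted p = 0.106) did not pass. Nor was it called for Higd1b, with diet log2 fold changes of -0.55 in WT and 0.14 in HoipA-KO mice.

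The 2 genes of the mural potassium channel had lower estimates in HoipA-KO mice on CD, and 1 of them was called. Abcc9 (ENSMUSG00000030249), which encodes the regulatory subunit SUR2, had 45.2, 29.4 and 22.9 CPM in WT CD and 24.8, 14.7 and 16.9 CPM in HoipA-KO CD replicates 1 to 3. Its log2 fold change was -0.96 (standard error 0.26, edgeR adjusted p = 0.0191), and -0.79 over 12 libraries, where it did not pass (adjusted p = 0.0574). The call was also lost without WT CD replicate 1 (-0.56, adjusted p = 0.161), without HoipA-KO CD replicate 2 (-0.82, adjusted p = 0.0629) and with only the groups compared in the model (-0.90, adjusted p = 0.0738). On HFD Abcc9 had 52.6, 40.8 and 44.3 CPM in WT and 33.0, 23.3 and 24.7 CPM in HoipA-KO libraries, with a log2 fold change of -0.77 (standard error 0.24, edgeR adjusted p = 0.0654). The groups on HFD were separate, and the difference passed in DESeq2's Wald test (adjusted p = 0.0207) and with only the groups compared in the model (adjusted p = 0.0318).

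Kcnj8 (ENSMUSG00000030247), which encodes the pore Kir6.1, had 26.2, 19.98 and 9.98 CPM in WT CD and 10.9, 3.54 and 11.6 CPM in HoipA-KO CD replicates 1 to 3. WT CD replicates 1 and 2 lay above all HoipA-KO libraries and WT CD replicate 3 fell among them. Its log2 fold change on CD, -1.39 (standard error 0.54, edgeR adjusted p = 0.0675), was as large as that of Rgs5 but less precise and did not pass. It did pass without HoipA-KO HFD replicate 1 (-1.47, adjusted p = 0.0427) and in DESeq2's Wald test (adjusted p = 0.0285). On HFD the WT libraries had 27.6, 14.3 and 17.9 CPM and the HoipA-KO libraries 23.8, 7.60 and 13.9 CPM, and the groups overlapped. Its estimate there was -0.41 (standard error 0.49), and -0.87 without HoipA-KO HFD replicate 1. The paralogous channel genes of other tissues, Kcnj11 and Abcc8, had at most 0.374 and 0.356 CPM outside WT CD replicate 2, in which Abcc8 had 24.3 CPM. Abcc8 was called lower in HoipA-KO on CD with that library (log2 fold change -5.87, edgeR adjusted p = 0.0116), although its groups overlapped.

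Pdgfrb (ENSMUSG00000024620), the receptor that draws pericytes to vessels, was the pericyte member with a positive estimate on CD. It had 61.4, 30.9 and 29.7 CPM in replicates 1 to 3 of WT CD and 134, 122 and 124 CPM in HoipA-KO CD, so that the lowest HoipA-KO library stood well above the highest WT library. The log2 fold change was 1.49 (standard error 0.28, edgeR adjusted p = 0.00352), 2.81 times the WT level, and 1.63 over 12 libraries (adjusted p = 0.00206). When 1 library was left out it ran from 1.05 without WT CD replicate 2 to 2.12 without WT CD replicate 1, and it passed every time. In WT mice on HFD Pdgfrb had 101, 104 and 135 CPM, above all WT CD libraries, with a log2 fold change for the diet of 1.32 (standard error 0.28, adjusted p = 0.0164). That call was lost without WT HFD replicate 3 (1.10, edgeR adjusted p = 0.0536) and with only the groups compared in the model (1.25, adjusted p = 0.110). HoipA-KO HFD libraries had 138, 159.8 and 139 CPM, close to the other HoipA-KO libraries, and HoipA-KO and WT did not differ past the threshold on HFD (0.37, standard error 0.24). The interaction of genotype and diet was -1.12 (standard error 0.36, adjusted p = 0.114), was called by DESeq2's Wald test (adjusted p = 0.0296), and passed in edgeR's quasi-likelihood test without WT CD replicate 1 (-1.77, adjusted p = 0.00388).

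Cspg4 (ENSMUSG00000032911), the gene of the NG2 proteoglycan on the pericyte surface, was called on HFD and not on CD. It had 48.1, 58.5 and 64.2 CPM in WT HFD and 34.6, 19.8 and 26.8 CPM in HoipA-KO HFD replicates 1 to 3. This was a log2 fold change of -1.07 (standard error 0.30, edgeR adjusted p = 0.0465), or 0.475 times the WT level. The call was narrow and was lost over 12 libraries (-1.09, adjusted p = 0.183), with library size in place of TMM normalization (-0.96, adjusted p = 0.0662) and without any of 7 libraries, namely each WT HFD library, HoipA-KO CD replicates 1 and 2 and HoipA-KO HFD replicates 2 and 3. On CD the WT libraries had 47.8, 22.5 and 11.6 CPM and the HoipA-KO libraries 22.3, 20.4 and 28.8 CPM. WT CD replicate 1 decided the sign, since the log2 fold change of -0.53 (standard error 0.33) became 0.17 without it, and without WT CD replicate 2 it was -1.002 and passed (adjusted p = 0.0227). The diet in WT mice was 0.72 (standard error 0.34, edgeR adjusted p = 0.174), and 1.44 without WT CD replicate 1, where it passed (adjusted p = 0.0139). The interaction was not called for Cspg4 over 11 libraries (-0.54, edgeR adjusted p = 0.503), so a difference between the diets was not shown.

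Notch3 (ENSMUSG00000038146), the Notch receptor of mural cells, did not pass in any comparison over 11 or 12 libraries. It had 30.9, 64.5 and 19.7 CPM in WT CD and 42.3, 32.2 and 36.2 CPM in HoipA-KO CD replicates 1 to 3, and the WT libraries enclosed the HoipA-KO libraries. On HFD it had 48.7, 46.8 and 50.5 CPM in WT and 39.9, 48.1 and 32.2 CPM in HoipA-KO libraries. In HoipA-KO its log2 fold change was -0.31 (standard error 0.26) on CD and -0.28 (standard error 0.23) on HFD. WT CD replicate 2, the highest of all, set the sign on CD, where the value without it was 0.26, whereas without WT CD replicate 1 it was -0.72 and passed (edgeR adjusted p = 0.0248). When WT CD was replicates 1 and 3, the diet in WT mice passed at 0.95 (edgeR adjusted p = 0.0315).

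**Figure D2:**
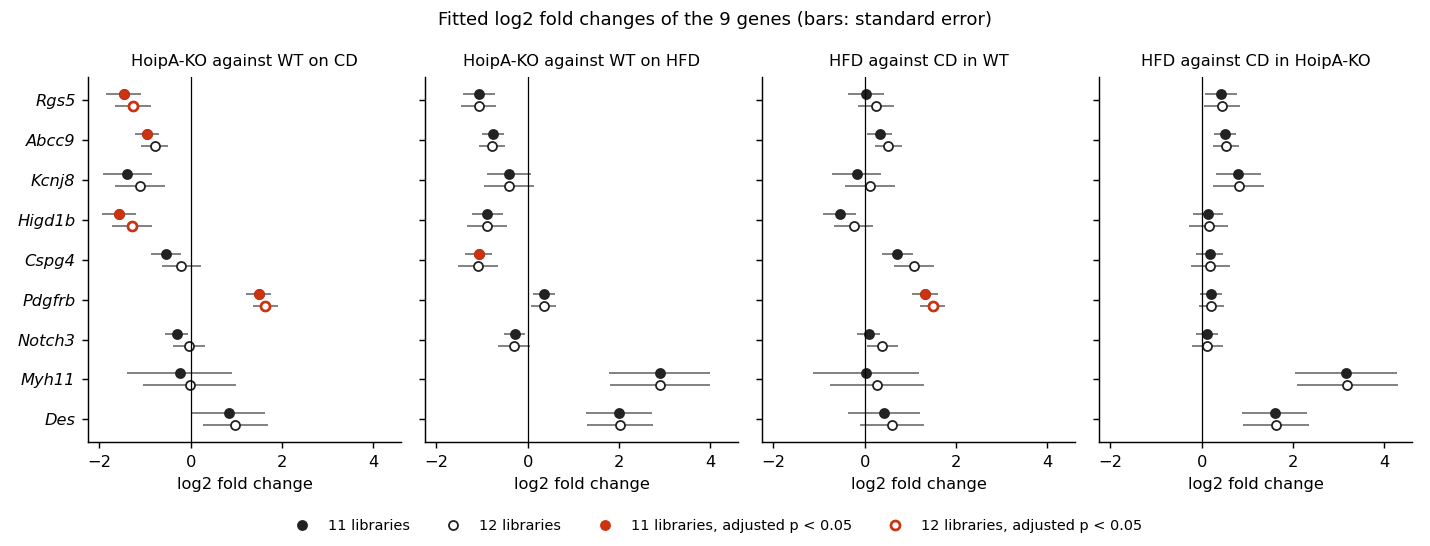
Log2 fold changes of the 9 genes in 4 comparisons with their standard errors, filled points for 11 and open points for 12 libraries, and red points for an adjusted p under 0.05 (edgeR). Rgs5, Abcc9, Kcnj8 and Higd1b lie left of 0 and Pdgfrb right of 0 for HoipA-KO on CD, and Myh11 and Des have the widest errors.

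Myh11 (ENSMUSG00000018830) encodes the smooth muscle myosin heavy chain and Des (ENSMUSG00000026208) the intermediate filament desmin of muscle cells, and edgeR called neither in any comparison. Myh11 had 48.0, 91.8 and 36.4 CPM in replicates 1 to 3 of WT CD and 64.5, 35.5 and 71.5 CPM in HoipA-KO CD. On HFD it had 81.2, 92.4 and 33.0 CPM in WT libraries, and 1442, 53.6 and 70.8 CPM in HoipA-KO replicates 1 to 3. HoipA-KO HFD replicate 1 was thus far above all others, which lay between 33.0 and 92.4 CPM. The log2 fold change of HoipA-KO against WT on HFD was 2.89 (standard error 1.11, edgeR adjusted p = 0.111) with this library and -0.12 (adjusted p = 0.885) without it. The effect of HFD in HoipA-KO mice was 3.16 with it and 0.15 without it.

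Des followed the same library. It had 25.0, 27.6 and 16.8 CPM in WT CD and 47.4, 27.8 and 61.1 CPM in HoipA-KO CD, with 27.8 CPM next to the highest WT library. On HFD it had 35.0, 38.3 and 29.4 CPM in WT and 338, 41.1 and 42.0 CPM in HoipA-KO replicates 1 to 3. Its log2 fold change on HFD was 2.01 (standard error 0.72, edgeR adjusted p = 0.0943) with HoipA-KO HFD replicate 1 and 0.30 (adjusted p = 0.488) without it, and DESeq2's Wald test called it with that library (2.03, adjusted p = 0.0146). On CD it was 0.83 (standard error 0.80, adjusted p = 0.438), and 0.73 (adjusted p = 0.0674) without that library.

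**Figure D3:**
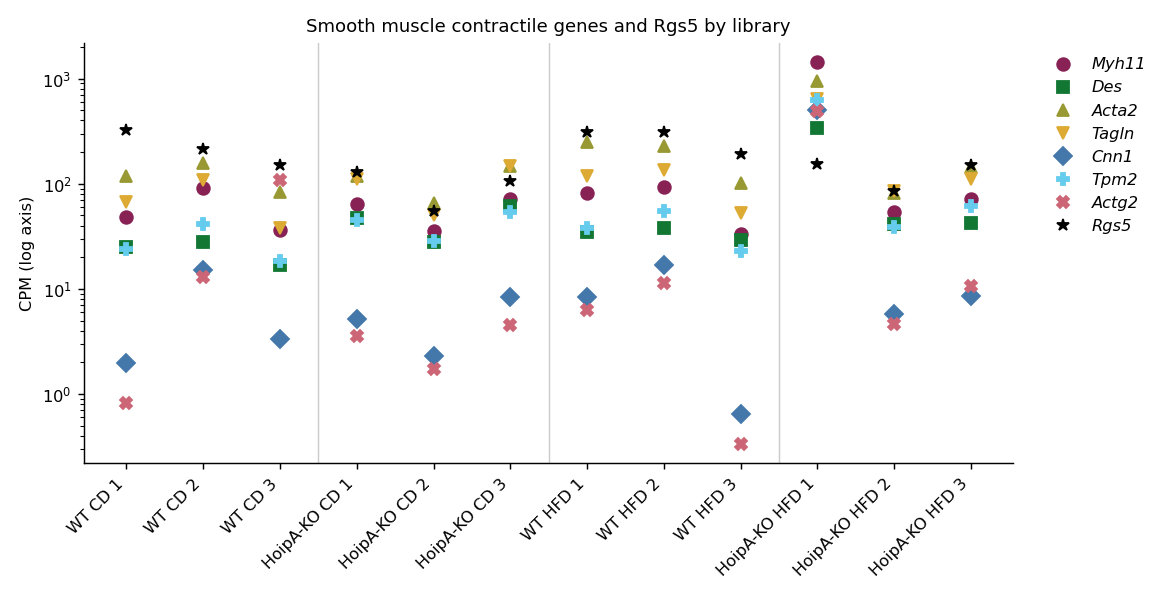
Normalized CPM (log axis) of 7 contractile genes and of Rgs5 in the 12 libraries, grouped by genotype and diet. The contractile genes reach 338 to 1442 CPM in HoipA-KO HFD replicate 1 while Rgs5 has 154 CPM there and 149 CPM in replicate 3.

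A longer list of contractile genes was read beside Myh11 and Des. Of its 13 genes, among them Acta2 (smooth muscle actin), Tagln (transgelin) and Cnn1 (calponin), edgeR's quasi-likelihood test called 0 in each comparison, the interaction included. At an unadjusted p under 0.05 the numbers were 1 on CD, 2 on HFD and 0 for the diet in WT mice. They were 6 for the diet in HoipA-KO mice and 1 for the interaction. Of all 18427 genes, 8921 on CD, 5812 on HFD and 5907 for the diet in WT mice had such a p-value. For the diet in HoipA-KO mice 415 had it, and for the interaction 4228. DESeq2's Wald test called 1 contractile gene higher on HFD, beside 4410 of all 18427 genes in either direction, and gave no value for 4. Summed over the list, HoipA-KO HFD replicate 1 had 4620.4 CPM, against 432 to 1006 CPM in the other libraries. In the same library Cnn1 had 502 CPM, where all others had at most 17.01, and Pcp4 and Actg2, which visceral smooth muscle expresses, had 115 and 489 CPM. The epididymal gene Crisp1 (1303 CPM) and the skeletal muscle genes Ckm (39.2 CPM) and Acta1 (105 CPM, and 62.3 CPM in WT CD replicate 1) were high there as well. The other markers of these tissues were not, with at most 2.09 CPM for epididymis (Adam7) and 0.592 CPM for skeletal muscle (Mylpf) in that library. The 7 pericyte members summed to 426 CPM there, against 346 and 389 CPM in the other HoipA-KO HFD libraries. Actg2 reached 107 CPM in WT CD replicate 3 and at most 12.8 CPM in the remaining libraries. The part of tissue other than fat in these values was not tested. Without HoipA-KO HFD replicate 1, 2 of the 13 contractile genes were called lower in HoipA-KO on CD, Mylk (myosin light chain kinase, log2 fold change -1.34, edgeR adjusted p = 0.0149) and Casq2 (calsequestrin 2, -2.94, adjusted p = 0.00260), and Mylk was lower on HFD too (-1.51, adjusted p = 0.0357). In that setting 38.8% of all genes were called in either direction on CD and 11.5% on HFD, so the contractile genes did not exceed the whole table.

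Of 13 further pericyte genes 4 were called lower and 2 higher in HoipA-KO on CD, with a median log2 fold change of -0.43 beside -0.055 for all genes tested. Of all genes tested 18.8% were called lower and 18.9% higher there. Mcam (the adhesion molecule CD146) had 569, 195 and 181 CPM in replicates 1 to 3 of WT CD and 122, 87.1 and 134 CPM in HoipA-KO CD. The metalloreductase gene Steap4 had 644, 297 and 193 CPM in WT CD and 203, 157 and 199 CPM in HoipA-KO CD. For both, WT CD replicate 1 was the highest library and replicate 3 came close to the HoipA-KO libraries (Mcam) or lay among them (Steap4). The log2 fold changes were -1.72 for Mcam (edgeR adjusted p = 0.0209), -1.31 for Steap4 (adjusted p = 0.0181), -2.61 for Art3, an ADP-ribosyltransferase gene (adjusted p = 0.00327), and -1.50 for Cox4i2, a cytochrome c oxidase subunit (adjusted p = 0.0218). Over 12 libraries Steap4 and Cox4i2 did not pass. Endothelial cells also express Mcam, and adipocytes also express Steap4. The genes called higher were Foxs1, a forkhead factor of mural cells (1.23, edgeR adjusted p = 0.0105), and Ednra, the endothelin receptor of mural cells and fibroblasts (1.01, adjusted p = 0.0268), with 20.6 to 24.6 CPM in HoipA-KO CD and 7.62 to 13.0 CPM in WT CD for Ednra. On HFD Mcam (-1.68), Steap4 (-1.37) and Art3 (-2.03) were lower, beside 7.62% of all genes, and none was higher, and over 12 libraries Art3 alone passed. For the diet in WT mice 0 of the 13 were called by edgeR's quasi-likelihood test, beside 14.8% of all genes. Of the list 2 had an unadjusted p under 0.05, and of all 18427 genes 5907. DESeq2's Wald test called 1 of the list and 4551 of all 18427 genes.

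Of 5 PDGF genes other than Pdgfrb, Pdgfra and Pdgfa were called higher in HoipA-KO on CD and for the diet in WT mice, beside 18.9% and 9.35% of all genes higher. Pdgfb, the endothelial ligand of PDGFRβ, had 60.0, 33.7 and 22.8 CPM in WT CD and 56.0, 47.0 and 63.8 CPM in HoipA-KO CD and was not called (log2 fold change 0.28, edgeR adjusted p = 0.494). Pdgfra, the receptor of adipose progenitors and fibroblasts, had 34.7, 27.0 and 30.7 CPM in WT CD and 124, 107 and 112 CPM in HoipA-KO CD. It rose in HoipA-KO on CD by 1.93 on the log2 scale (edgeR adjusted p = 0.00117) and with HFD in WT mice by 1.41 (adjusted p = 0.0135). Pdgfa rose by 0.52 and 0.54 in the same comparisons (adjusted p = 0.0284 and 0.0494), which share the WT CD libraries. Neither Pdgfa call held without HoipA-KO HFD replicate 1 (adjusted p = 0.0570 and 0.0794), where Pdgfd, another ligand of PDGFRβ, was lower on HFD (-1.15, edgeR adjusted p = 0.0421). Pdgfrb was called in these 2 comparisons as well. Of 8 genes of progenitors and fibroblasts, Pdgfra among them, 5 were higher in each of the 2 comparisons, and the list summed to 1149.9 to 1917 CPM in WT CD, 5510.1 to 7486 CPM in HoipA-KO CD, and on HFD to 3329 to 6366 CPM in WT and 7279 to 7944 CPM in HoipA-KO mice. The part of these cells in the level of Pdgfrb was not tested.

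Of 4 angiopoietin and Tie genes, Angpt1, the mural ligand of TIE2, was lower in HoipA-KO on CD (log2 fold change -1.36, edgeR adjusted p = 0.00596) and for the diet in WT mice (-1.07, adjusted p = 0.0367). It had 19.5, 15.1 and 7.58 CPM in replicates 1 to 3 of WT CD and 5.33 to 8.06 CPM in HoipA-KO CD, so that WT CD replicate 3 lay within the HoipA-KO range, and over 12 libraries the diet call was lost (adjusted p = 0.164). Tek, which encodes TIE2, was lower on HFD (-0.94, edgeR adjusted p = 0.0392, 0.142 over 12 libraries and 0.0635 without HoipA-KO HFD replicate 1). Of all genes 18.8% were lower on CD, 7.62% on HFD and 5.47% for the diet in WT mice.

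Of 12 other genes of the Notch pathway 5 were lower and 1 higher in HoipA-KO on CD, beside 18.8% of all genes lower and 18.9% higher. The median log2 fold change of the 12 was -0.91. Those lower were the ligand genes Dll4 (-2.71, edgeR adjusted p = 0.00765) and Jag2 (-1.43), the receptor genes Notch1 (-1.16, adjusted p = 0.000525) and Notch4 (-1.41), and the target Nrarp (-2.47), and Notch2 was higher (0.98, adjusted p = 0.00835). Dll4, a ligand of arterial and tip endothelial cells, had 54.2, 19.9 and 19.2 CPM in WT CD and 7.04, 2.46 and 7.35 CPM in HoipA-KO CD. Notch1 had 75.4, 95.5 and 31.6 CPM in WT CD and 35.7 to 37.8 CPM in HoipA-KO CD, where WT CD replicate 3 fell below all HoipA-KO libraries and ended the call over 12 libraries (adjusted p = 0.0542). On HFD Dll4 (-2.13, edgeR adjusted p = 0.0401), Notch1 (-0.69, adjusted p = 0.0148) and Notch4 (-1.32, adjusted p = 0.0414) were lower, beside 7.62% of all genes, and over 12 libraries none of the 3 passed. Without HoipA-KO HFD replicate 1, Notch1 was the 1 Notch gene lower on HFD. The effectors Hey1 and Heyl, expressed in mural and endothelial cells, were not called on CD, with log2 fold changes of -0.95 and 0.33.

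**Figure D4:**
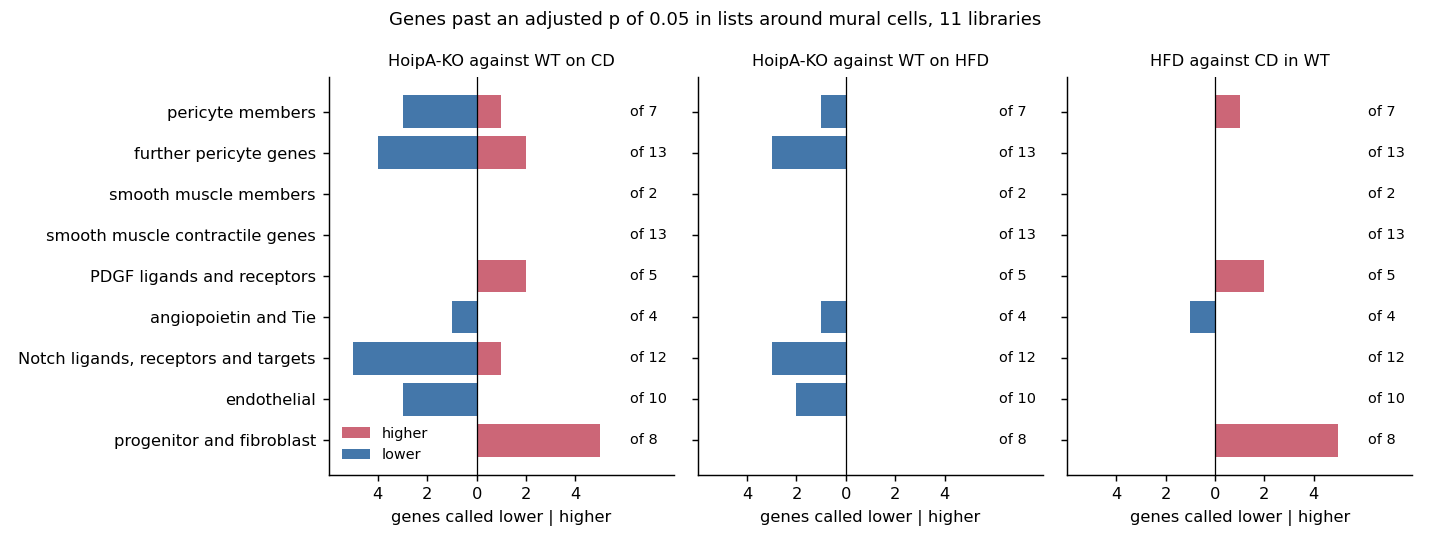
Numbers of genes called lower (left of 0) and higher (right of 0) in each list around mural cells over 11 libraries, for 3 comparisons, with the size of the list at the right. Pericyte, Notch and endothelial lists hold called genes on both diets, progenitor and fibroblast genes were called higher on CD and for the diet in WT mice, and contractile genes were not called.

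Endothelial genes were read in the same libraries to give the vessel beneath the pericytes a level of its own. Of 10 endothelial genes 3 were lower in HoipA-KO on CD, Cdh5 (VE-cadherin, -1.27), Kdr (VEGF receptor 2, -1.60) and Cldn5 (claudin 5, -1.59), and 2 on HFD, Cdh5 (-1.25) and Kdr (-1.29). These counts stand beside 18.8% of all genes lower on CD and 7.62% on HFD. Over 12 libraries Kdr was lower and Plvap, a gene of fenestrated endothelium, higher on CD, and none of the 10 was called on HFD. Without HoipA-KO HFD replicate 1, Kdr was the 1 endothelial gene lower on HFD. Pecam1, which encodes CD31, had 314, 184 and 101 CPM in WT CD and 174, 112 and 179 CPM in HoipA-KO CD and was not called (-0.66, edgeR adjusted p = 0.111). The difference between the mean log2(CPM + 1) of the 7 pericyte members and that of the 10 endothelial genes was -1.39 ± 0.20 (SD, n = 3) in WT CD, -1.35 ± 0.14 in HoipA-KO CD, and on HFD -1.27 ± 0.17 in WT and -1.20 ± 0.31 in HoipA-KO mice. All 4 groups overlapped, but this list mean averages members that moved in opposite directions, so it does not show that each kept its level. For Rgs5 and Pdgfrb the genotypes did not overlap on CD, where Rgs5 minus the endothelial mean was 1.32 to 1.66 in WT CD and 0.30 to 0.91 in HoipA-KO CD, and Pdgfrb minus that mean was -1.38 to -0.66 in WT CD and 0.64 to 1.42 in HoipA-KO CD. Relative to the endothelial genes Abcc9 and Kcnj8 lay at -1.50 to -1.02 and -2.26 to -1.98 in WT CD, and at -2.15 to -1.42 and -3.34 to -2.53 in HoipA-KO CD, with overlap for Abcc9 and none for Kcnj8. Higd1b lay at -4.45 to -3.22 in WT CD and -4.54 to -4.23 in HoipA-KO CD, with overlap. On HFD the genotypes overlapped for Rgs5 (1.05 to 1.42 in WT and 0.71 to 1.07 in HoipA-KO mice), Higd1b, Abcc9 and Kcnj8, and Pdgfrb lay at -0.28 to 0.53 in WT and 0.61 to 1.60 in HoipA-KO mice without overlap. The mean for Kcnj8 on HFD was -2.45 in WT and -2.28 in HoipA-KO mice. These differences are levels on the log2 scale and were not tested.

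**Figure D5:**
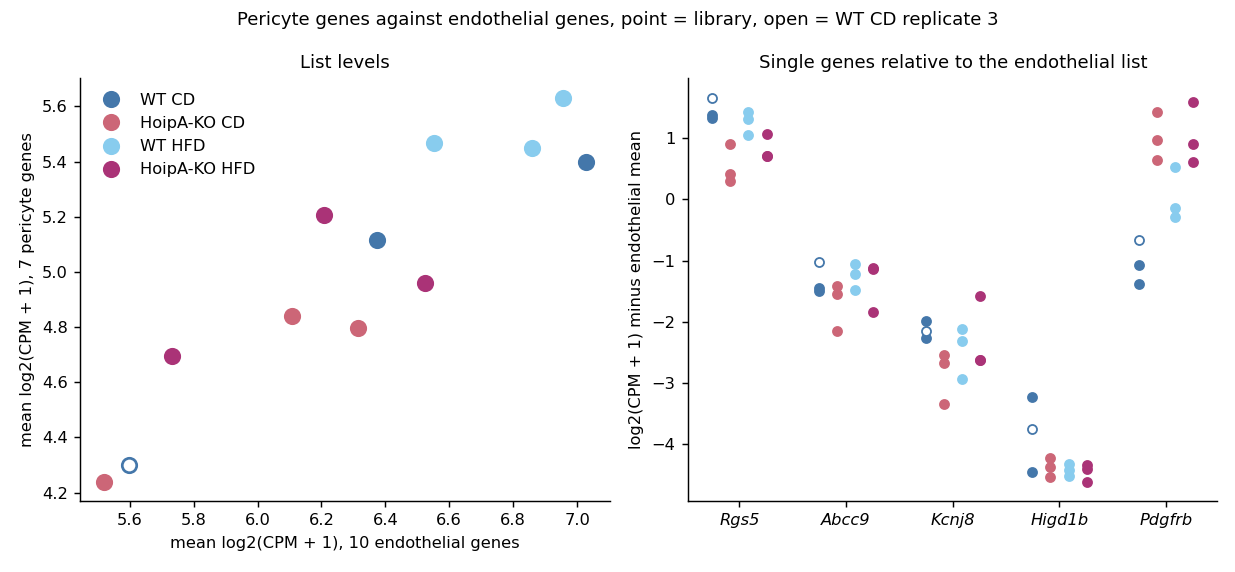
Left, mean log2(CPM + 1) of the 7 pericyte genes against that of the 10 endothelial genes in each library; right, single genes minus the endothelial mean, by group, with WT CD replicate 3 as an open point. The group means of the list difference lie between -1.39 and -1.20, while Rgs5 is lower and Pdgfrb higher relative to endothelial genes in HoipA-KO CD than in WT CD.

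Over 11 libraries, genes of adipocytes and macrophages were called in larger shares than the 9 members, beside 37.7% of all genes on CD and 11.8% on HFD. The 10 adipocyte genes summed to 14494 to 49323 CPM in WT CD and 6044 to 9236 CPM in HoipA-KO CD, with 9 lower on CD and 10 on HFD, or 8 on HFD over 12 libraries. The 9 macrophage genes summed to 251 to 467 CPM in WT CD, 8202 to 9200.2 CPM in HoipA-KO CD, and on HFD to 1296 to 4520.3 CPM in WT and 5305 to 9753 CPM in HoipA-KO mice, with 8 higher on CD and 5 on HFD. The 5 calls on HFD fell to 3 without HoipA-KO HFD replicate 1 (11.5% of all genes called) and to 0 over 12 libraries (2.78%). DESeq2's Wald test called 7 over 11 libraries, beside 4410 of all 18427 genes. CPM divides each gene by the total of its library, and the part of these shifts in the lower values of pericyte genes was not tested.

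For the diet in HoipA-KO mice edgeR's quasi-likelihood test called 0 of 18427 genes (0%), 415 had an unadjusted p under 0.05, and DESeq2's Wald test called 7. Of the 9 members 2, Myh11 and Des, were among those with an unadjusted p under 0.05. The other 7 had log2 fold changes of 0.11 (Notch3) to 0.80 (Kcnj8). The interaction of genotype and diet was called for 3.91% of all genes and 0 of the 9 members by edgeR's quasi-likelihood test. At an unadjusted p under 0.05 were 1 member and 4228 of all 18427 genes. DESeq2's Wald test called 1 member, Pdgfrb, and 2350 of all 18427 genes.

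The genes with a profile most like that of Rgs5 over the 12 libraries, among 15794 genes with a mean of at least 1 CPM, were Afap1l1, Rasgrp2, Coro6, Tnk2 and Lmo7. Likeness was the root mean square difference between centred log2(CPM + 1) profiles, 0.187 for Afap1l1 and 0.248 for Lmo7, where the spread of Rgs5 itself was 0.745. Afap1l1, an actin filament associated protein gene, had 48.9, 25.5 and 21.3 CPM in WT CD and 15.2, 8.22 and 15.5 CPM in HoipA-KO CD. The genes nearest to Myh11 were P2rx1, Sh3bgr, Tpm2, Jph2 and Pdlim3, with differences of 0.330 to 0.430 and a spread of 1.37 for Myh11. Like Myh11, Tpm2, a tropomyosin gene, was highest in HoipA-KO HFD replicate 1, with 629 CPM against at most 61.6 CPM in the other libraries.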

How the data were processed

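GWAT of WT and HoipA-KO mice on CD or HFD was sequenced as poly(A)-selected, stranded libraries with ERCC spike-in. The authors used Trim Galore 0.6.7, STAR 2.7.10a and Salmon 1.5.2 per the submitters' processing notes, and deposited estimated counts per gene without normalization. The notes give build GRCm38, and the deposited identifiers are mouse genes. The deposited DESeq2 tables, which hold the authors' log2 fold changes, p-values and CPM of 11 libraries, were not used.

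Estimated counts were rounded to whole numbers. In edgeR 4.0.16 (R 4.3.3, prior count 0.125), genes passing filterByExpr entered 1 TMM-normalized model of the 4 groups, each comparison being a contrast of its quasi-likelihood fit, with Benjamini-Hochberg adjustment at 0.05 over all 18427 genes tested (18074 over 12 libraries). Printed CPM values are normalized by TMM over all 12 libraries. The biological coefficient of variation was 0.394 over 11 libraries and 0.514 over 12. P-values measure the spread between pools, and intervals of counting error are not given because it is small at these depths. The scripts were tested on simulated data with less spread between libraries than measured here, which does not show how they perform at the measured spread.

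The members, gene lists and tests were chosen with earlier results of these data known. Besides the 9 members, genes named are list genes called for genotype, abundant uncalled ones and the 5 profiles nearest to Rgs5 and Myh11. Plvap, Pdgfd, Tpm2, Hey1, Heyl, Crisp1, Ckm, Pcp4, Actg2, Mylk, Casq2, the other epididymal and skeletal muscle markers and other genes of HoipA-KO HFD replicate 1 were named after their values were seen. Replicate numbers were not used to pair the libraries outside the replicate block. Alternatives were other normalizations (DESeq2 1.42.0 size factors, library size), filters, protein-coding genes, other library sets, a replicate block, DESeq2's Wald test, a threshold of 0.01 and leaving out each library. Gene lists without HoipA-KO HFD replicate 1 were an alternative chosen after seeing the data.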

Additional observations from a re-analysis of the deposited data

How the results depend on the processing

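On CD 4 members were called, 3 to 5 when 1 library was left out, 1 when WT CD was replicates 2 and 3, 2 when it was replicates 1 and 3, and 2 at an adjusted p of 0.01. On HFD 1 was called, 0 to 2 when 1 library was left out, 0 over all 12 libraries, with library size, with WT CD replicates 2 and 3, with replicates 1 and 3 and at 0.01, 2 with protein-coding genes and with only the groups compared, and 4 in DESeq2's Wald test (Rgs5, Abcc9, Cspg4 and Des). For the diet in WT mice 1 was called, 0 to 2 when 1 library was left out, 3 with WT CD replicates 2 and 3, 2 with replicates 1 and 3, and 0 with only the groups compared and at 0.01. For the interaction 0 were called, 0 to 1 when 1 library was left out, 2 with WT CD replicates 2 and 3 and 1 in DESeq2's Wald test. DESeq2 gave no value for Myh11. The number of all genes called also changed with the setting, from 6947 of 18427 on CD in the main fit. With WT CD replicates 2 and 3 it was 8264 of 19416 on CD and 1298 on HFD. In that setting it was 7046 for the diet in WT mice and 3550 for the interaction. With replicates 1 and 3, of 18556 genes, it was 6681 on CD, 672 on HFD and 3080 for the diet in WT mice. Leaving out a WT CD library leaves 1, which is assumed to vary like the other groups. All genes called at 0.01 were 3619 of 18427 on CD, 185 on HFD and 660 for the diet in WT mice. On HFD they were 2412 of 18427 with library size, 2370 of 15617 with protein-coding genes and 3038 of 16838 with only the groups compared. The last setting gave 0 of 17200 for the diet in WT mice. DESeq2's Wald test called 4410 of 18427 genes on HFD and 2350 for the interaction. The cause of these shifts was not tested.

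Deviations of same-numbered libraries from their group means correlated at -0.353 to 0.522 (median 0.035, 6 of 15 pairs over 0.1). Those of other-numbered libraries correlated at -0.537 to 0.446 (median -0.0042, 8 of 30 pairs over 0.1). The ranges overlap, so these values do not settle whether the numbers pair the libraries. With a replicate block the count on HFD was 3 (Rgs5, Abcc9 and Cspg4), beside 2561 of all 18427 genes. In the same fit Kcnj8 passed on CD, where 5893 of all genes were called. There Myh11 on CD became 0.047 and the interaction of Notch3 -0.083.

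The log2 fold changes that changed sign were those of genes not called. For the diet in WT mice Rgs5 was -0.0082 with DESeq2 size factors and in DESeq2's Wald test, -0.043 without a filter, -0.046 with protein-coding genes and -0.050 with only the groups compared, Notch3 was -0.013, -0.035 and -0.033 in the last 3 settings, and Myh11 was -0.022 with DESeq2 size factors, -0.070, -0.080 and -0.087 in the last 3 settings and -0.019 with at least 10 counts in every library. Over 12 libraries Kcnj8 was 0.12 for the diet in WT mice and the interaction of Notch3 -0.26. With WT CD replicates 2 and 3, Cspg4 on CD was 0.55, Kcnj8 for the diet in WT mice 0.50, and the interactions of Rgs5, Abcc9 and Notch3 were -0.21, -0.37 and -0.18. With replicates 1 and 3, Notch3 and Myh11 on CD were 0.53 and 0.43, Kcnj8 and Higd1b for the diet in WT mice 0.14 and 0.17, and the interactions of Notch3 and Higd1b -0.83 and -0.022.

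When 1 library was left out, values that changed sign ran as follows. On CD, Cspg4 ran from -1.002 to 0.17, Notch3 from -0.72 to 0.26 and Myh11 from -0.60 to 0.25, and on HFD Myh11 ran from -0.12 to 3.42. For the diet in WT mice, Rgs5 ran from -0.27 to 0.43, Kcnj8 from -0.50 to 0.094, Notch3 from -0.31 to 0.65 and Myh11 from -0.31 to 0.52. For the diet in HoipA-KO mice, Cspg4 ran from -0.0071 to 0.35, Notch3 from -0.047 to 0.25, Higd1b from -0.050 to 0.43 and Des from -0.10 to 2.04. For the interaction, Abcc9 ran from -0.22 to 0.50, Notch3 from -0.54 to 0.42 and Des from -0.43 to 1.70. The median of all genes on CD was -0.055 over 11 libraries and -0.21 over 12. Each group holds 2 or 3 pools, and values near the floor of 3 counts (Kcnj11 and Abcc8) are limited by depth as well.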
